A study of Mus musculus with 136 samples.

Results

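The genes described here are those of the deposited table whose symbols mark them as cell cycle and mitosis genes: the Mcm, cyclin A, B and E, Cenp, Kif, Aurk, Plk, Cdc, E2f and Ncap families, Rrm1 and Rrm2, and the single genes Cdk1, Bub1b, Ndc80, Top2a and Mki67. The rule reads symbols and no measured value, and it found 89 of the 15196 genes. Of these, 54 have a role in DNA replication, mitosis or the E2F circuit and are called division genes below. The other 35 were grouped apart and are called the other members below. Most have other main roles, such as the transport kinesins, the Cdc42 effectors and Plk2. They also hold Cdc16, Cdc23 and Cdc26, subunits of the anaphase-promoting complex, and the mitotic kinesin Kif2b. Mcm5, Mcm6, Mcm7, Cdc6, Aurka, Bub1, E2f1 and Ccne2 are not analysed here.

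RNA was sequenced in 136 libraries of mouse bone marrow-derived macrophages (BMDMs), which the labels describe as C57/B16 wild type or knockout cells cultured for 6 days with 8% M-CSF, the growth factor that keeps macrophages and their precursors dividing. Chromatin-associated RNA, mostly RNA still being made, was measured in 113 libraries. Cells lacking Nfkb1 (which encodes p50) or Nfkbid (IkBNS) and their wild-type cells had 3 replicates each, and cells lacking Nfkbiz (IkBz) or Bcl3 and their wild-type cells had 2 each, all at 0, 0.5, 1, 2 and 6 h of lipid A, the part of endotoxin that activates TLR4. A TNFa course (5 libraries, 0 to 6 h, wild type) and an ERK inhibitor series (ERKi or DMSO before lipid A, 0 to 60 min, 8 libraries) had 1 library per condition. RNA that the labels call polyA RNA came from wild-type cells given lipid A or TNFa (9 libraries), from wild-type cells overexpressing IkBz and their controls, unstimulated or at 2 h of TNFa or lipid A (6 libraries), and from cells labelled J2 BMDM that were Nfkb1-/- Nfkb2-/- (2 replicates), Nfkb1-/- (1) or wild type (1), each at 0 and 2 h of lipid A. The labels do not say what J2 denotes, how many mice gave each library, which part of each gene was deleted or how IkBz was expressed, so p-values measure the spread between libraries only.

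A dividing cell first loads the MCM helicase on replication origins, makes deoxynucleotides with ribonucleotide reductase and copies its DNA under cyclin E and cyclin A. It then condenses its chromosomes with condensin and topoisomerase II alpha and enters mitosis under cyclin B and Cdk1, where kinetochore proteins, Aurora and Polo kinases and motor proteins move and divide the chromosomes. Many of these genes are transcribed in waves, through E2F sites early in the cycle and through CHR and CCAAT elements, read by the DREAM and MuvB complexes and NF-Y, later in it. Macrophages grown in M-CSF contain dividing cells, and TLR agonists are known to stop that division.

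Promoters of 5 members with large changes under lipid A are shown as examples: 4 that fell and 1, Cdc42ep2, that rose. They do not cover all large changes, since Aurkb and Cdc42ep3 (-2.25 and -2.26 on the log2 scale at 6 h) are not among them. Each runs from 250 bases before to 50 after the RefSeq transcription start, in the direction of the gene, in the GRCm38.p6 build. Capitals mark the CHR element (TTTGAA or TTCGAA), the CCAAT box (CCAAT) and E2F-type sites (TTTCCCGC, TTTGGCGC, TTTCGCGC, TTTGGCGG or TTTCCCGG), searched on both strands, and no matches overlap in these 5 windows.
Top2a: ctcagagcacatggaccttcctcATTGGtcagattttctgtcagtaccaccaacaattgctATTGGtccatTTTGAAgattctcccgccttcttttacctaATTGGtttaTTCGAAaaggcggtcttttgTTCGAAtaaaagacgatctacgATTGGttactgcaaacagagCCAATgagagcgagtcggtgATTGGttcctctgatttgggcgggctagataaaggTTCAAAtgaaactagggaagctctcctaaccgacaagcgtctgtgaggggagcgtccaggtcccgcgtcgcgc
Cdk1: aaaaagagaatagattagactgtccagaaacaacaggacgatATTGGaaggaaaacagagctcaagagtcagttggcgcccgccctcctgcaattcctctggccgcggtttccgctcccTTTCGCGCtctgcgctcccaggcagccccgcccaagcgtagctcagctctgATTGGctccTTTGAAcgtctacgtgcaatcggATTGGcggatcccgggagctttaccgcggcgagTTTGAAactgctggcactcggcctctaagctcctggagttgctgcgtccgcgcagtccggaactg
Kif23: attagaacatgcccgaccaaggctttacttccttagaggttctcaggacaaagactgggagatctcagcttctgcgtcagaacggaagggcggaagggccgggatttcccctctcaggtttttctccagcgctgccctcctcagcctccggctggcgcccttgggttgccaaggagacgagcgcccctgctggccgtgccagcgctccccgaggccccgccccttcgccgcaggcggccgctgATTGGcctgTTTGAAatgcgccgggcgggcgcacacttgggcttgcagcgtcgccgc
Rrm2: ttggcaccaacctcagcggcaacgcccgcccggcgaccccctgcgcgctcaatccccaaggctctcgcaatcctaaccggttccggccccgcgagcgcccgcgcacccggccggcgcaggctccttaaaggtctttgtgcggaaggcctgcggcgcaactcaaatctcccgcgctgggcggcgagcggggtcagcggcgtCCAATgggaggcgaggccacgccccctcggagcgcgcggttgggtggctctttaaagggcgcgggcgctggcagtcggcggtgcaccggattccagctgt
Cdc42ep2: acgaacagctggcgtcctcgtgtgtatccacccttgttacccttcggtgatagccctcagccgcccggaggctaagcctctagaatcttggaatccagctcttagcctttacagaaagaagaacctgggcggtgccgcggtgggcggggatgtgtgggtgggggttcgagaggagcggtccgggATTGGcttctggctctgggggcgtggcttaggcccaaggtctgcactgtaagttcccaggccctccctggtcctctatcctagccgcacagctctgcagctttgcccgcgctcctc
The Top2a window (chr11:99024140-99024439, minus strand) held 4 CHR and 6 CCAAT matches. The Cdk1 window (chr10:69352863-69353162, minus strand) held 2 CHR, 3 CCAAT and 1 E2F-type match, and the Kif23 window (chr9:61946750-61947049, minus strand) held 1 CHR and 1 CCAAT match on either side of the start. The Rrm2 (chr12:24708004-24708303, plus strand) and Cdc42ep2 (chr19:5924767-5925066, minus strand) windows held 1 CCAAT match each and no CHR match. The window of Ccnb1, a member that also fell, was read but is not shown, and it held CCAAT matches and no CHR match.

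RefSeq promoters were found for 74 of the 89 members, 77 windows in all. CHR and CCAAT matches stood together in 40% of the 50 windows of division genes, in 3.70% of the 27 windows of the other members and in 7.53% of all 32851 promoters of that length. CHR matches alone were in 48%, 11.1% and 19.2% of these windows, CCAAT matches in 66%, 25.9% and 37.4%, and E2F-type matches in 22%, 0% and 3.59%. Among members that fell at 6 h of lipid A, 63.0% of 27 windows held a CHR match, against 8.70% of 23 windows of the members tested that did not fall. CCAAT matches were in 70.4% and 39.1% of these windows, and E2F-type matches in 18.5% and 8.70%. Most members that fell were division genes, so this contrast overlaps that between division genes and the other members. A link between CHR matches and the fall was not tested apart from it. These are descriptions of letters in a window and not of bound sites.

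Values are RPKM (reads scaled by gene length and library depth), which in chromatin RNA were scaled over the whole gene, introns included. Each difference is one of log2(RPKM + 0.5), given with its standard error (±), and the added 0.5 understates changes of genes under about 1 RPKM. Depth, recovered from the smallest step between values, was 7.86 to 45.3 M reads for chromatin RNA. Whole reads were not recovered from the polyadenylated libraries, whose depth is unknown. A gene counted as changed at an adjusted p under 0.05 (limma, Benjamini-Hochberg over all genes tested) and at least 2-fold. A gene said not to have passed missed at least 1 of these lines. In bulk RNA fewer cells in division and less RNA per dividing cell cannot be told apart. The 5 macrophage markers in the table summed to 19.6 to 5206 RPKM in chromatin libraries, whereas the lymphoid, erythroid, mast cell and dendritic cell markers each summed to under 1 RPKM in every one. Neutrophil and granulocyte precursor markers (8 genes) reached 64.8 RPKM, with a median of 0.450 RPKM, progenitor markers 1.73 RPKM and stromal markers 4.01 RPKM.

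Replicate 1 of the Nfkbid series stands apart in both genotypes and is named wherever it bears on a result. Its 10 libraries had 6.92 to 19.4 RPKM of the nuclear RNA Malat1, against 704 to 2863 RPKM in the other 90 libraries of the 4 knockout series, and 0.0931 to 0.673 RPKM of Rmrp, against 328 to 50170 RPKM. The knocked-out genes could not be checked by whole-gene values. Nfkb1 RNA was 0.703 to 21.3 RPKM in Nfkb1 knockout libraries and 1.33 to 24.0 RPKM in their wild type, Bcl3 RNA was 8.79 to 40.9 RPKM in Bcl3 knockout libraries and 2.21 to 18.1 RPKM in their wild type, and Nfkbiz and Nfkbid are not analysed here.

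Resting wild-type macrophages transcribed the division program at levels that differed several-fold between libraries. Summed over the 54 division genes, chromatin RNA at 0 h ranged over 43.2 to 393 RPKM in 10 wild-type libraries, with a median of 111 RPKM. The highest sum was that of replicate 1 of the Nfkbid series, and the next highest library had 153 RPKM. The median division gene differed 5.95-fold between its highest and lowest library. Wild-type replicate 2 of the Nfkb1 series was the lowest library for 44 of the 54 genes, and wild-type replicate 1 of the Nfkbid series was the highest for 26. The most abundant per length at rest were Ncapd2, a condensin subunit whose span overlaps the small RNA gene Scarna10 (lowest 5.86, median 10.3, highest 12.6 RPKM), Mki67, the coat of mitotic chromosomes (2.72, 9.66, 25.6), and Top2a (1.44, 5.12, 17.2). At the other end Ccnb3, the meiotic cyclin B, had a median of 0.000708 RPKM. The median over the 10 libraries was at least 1 RPKM for 38 of the 54.

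Resting levels of the knockout cells mostly overlapped those of their wild type. The sums at 0 h were 41.0 to 130 RPKM in Nfkb1 knockout cells and 43.2 to 133 RPKM in their wild type, 90.4 and 99.3 RPKM in Nfkbiz knockout cells and 112 and 144 RPKM in theirs, and 51.1 and 143 RPKM in Bcl3 knockout cells and 66.7 and 110 RPKM in theirs. In the Nfkbid series the knockout libraries had 167, 82.8 and 132 RPKM and the wild-type libraries 393, 70.9 and 153 RPKM, in the order of replicates 1 to 3. The groups overlapped in the Nfkb1, Bcl3 and Nfkbid series, and both Nfkbiz knockout libraries lay below both of their wild-type libraries. Within the 3 same-numbered Nfkb1 pairs, 52, 40 and 41 of the 54 division genes were lower in the knockout library, with sums of 64.3, 41.0 and 130 RPKM in knockout and 95.9, 43.2 and 133 RPKM in wild type. The median log2 difference of the division genes was -0.54, -0.04 and -0.07. For all genes tested in the wild-type course it was -0.52, -0.03 and 0.02, so in replicate 1 all genes stood lower about as much. The TNFa series started at 133 RPKM, within the range of the wild types, and the ERK series at 37.1 RPKM with ERKi and 38.1 RPKM with DMSO, below all 10.

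**Figure D1:**
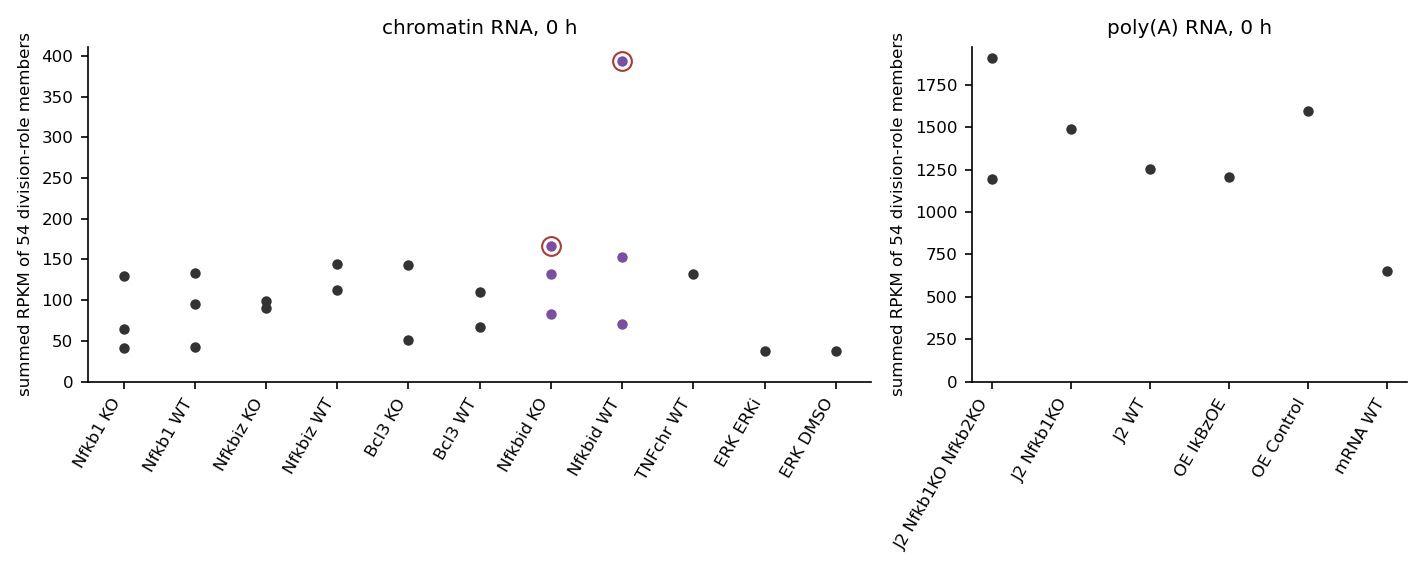
Summed RPKM of the 54 division genes at 0 h, 1 point per library, in chromatin RNA by series (left) and in polyadenylated RNA (right); knockout, overexpressing or ERKi libraries stand left of their controls and purple points are the Nfkbid series and red rings its replicate 1. The wild-type libraries of the 4 knockout series spread over 43.2 to 393 RPKM, or up to 153 RPKM without replicate 1 of the Nfkbid series. Knockout and wild type overlap in the Nfkb1, Bcl3 and Nfkbid series. Axes are linear and differ between the panels.

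Lipid A lowered the transcription of most of the division program within the first hours. The division sum over the 10 wild-type libraries had medians of 111, 72.4, 44.8, 47.1 and 29.8 RPKM at 0, 0.5, 1, 2 and 6 h. A fit over the 50 wild-type libraries, with the series as a term, tested 4260 genes, among them 57 members. At 0.5 h, 10 members fell and 2 rose, where 16.4% of all genes tested fell and 6.17% rose. After 1 h, 25 fell and 2 rose (17.9% and 7% of all genes). The counts were 25 and 1 after 2 h (20% and 10.6%), and 31 and 1 after 6 h (14.9% and 9.65%). Of the 35 division genes tested, 5, 22, 21 and 26 fell at these times and none rose. At 0.5 h the share of members that fell was thus close to that of all genes, and the share of division genes was no larger. Their median difference was -0.66, -1.08, -1.20 and -1.50, against -0.48, -0.36, -0.40 and -0.33 for all genes tested. A member could enter the fit through its 0 h level alone, so the counts among tested genes are not support for a fall of the whole list.

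Most of the early calls were lost when each library was centred on its median gene, and the balance of calls over all genes turned. With centring, 0, 5, 14 and 25 members fell and 3, 3, 2 and 2 rose at 0.5, 1, 2 and 6 h. Over all genes tested 3.29%, 6.64%, 9.91% and 7.86% then fell and 10.8%, 11.5%, 15.5% and 13.5% rose, so that more genes rose than fell at each time. Without the Nfkbid wild-type replicate 1, 13, 25, 25 and 26 members fell. Without any filter, 41, 45, 44 and 46 of all 54 division genes were lower than at 0 h in every one of the 10 same-numbered pairs of libraries at 0.5, 1, 2 and 6 h, as were 27.6%, 27.8%, 29.4% and 28.6% of all 15196 genes, many of which have too few reads to differ. Among the 4260 genes tested these shares were 51.1%, 43.3%, 48.9% and 46.0%. Higher in every pair were 0, 0, 2 and 0 of the division genes and 574, 656, 1096 and 1038 of all 15196 genes.

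**Figure D2:**
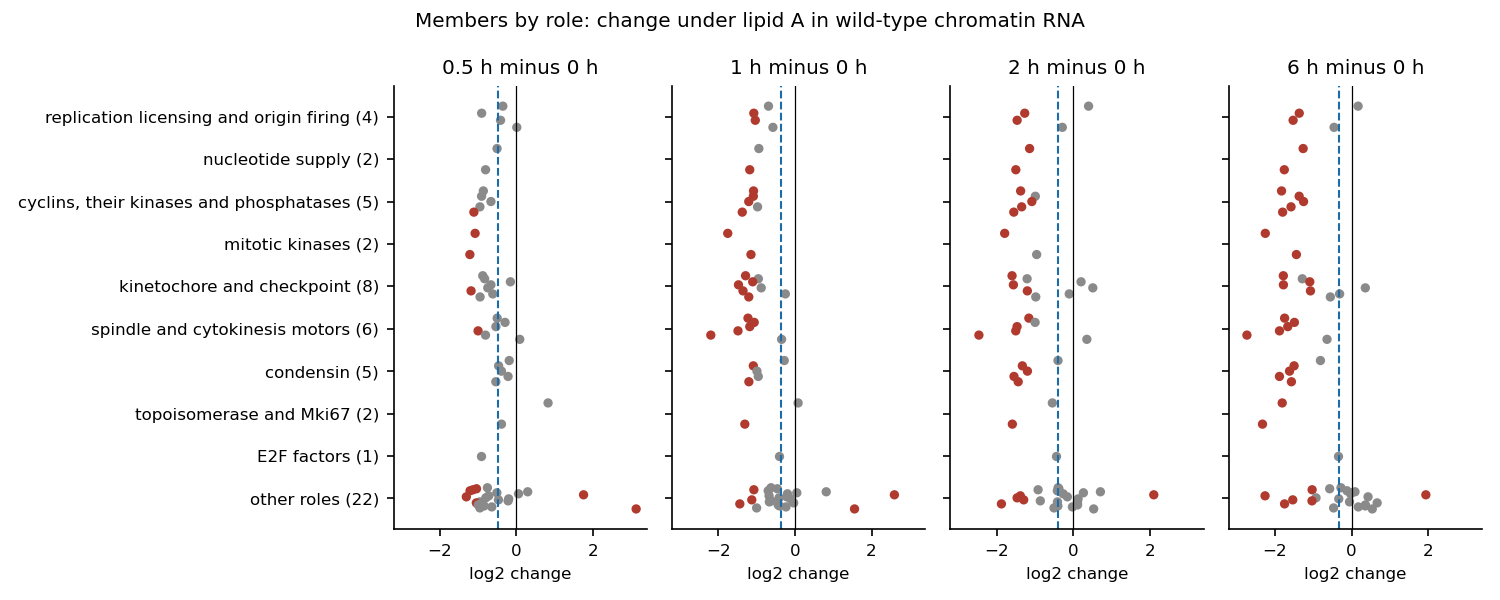
Log2 change against 0 h of each tested member in wild-type chromatin RNA, by role and for 0.5, 1, 2 and 6 h of lipid A; red points are called changes and the blue dashed line is the median of all genes tested. Division roles move down with time to a median of -1.50 at 6 h, while the other members have a median of -0.09 at 6 h.

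The genes of DNA synthesis fell strongly. Rrm2, the regulated subunit of ribonucleotide reductase (chromosome 12, 25393118 to 25399011, mm9), had medians of 1.80, 0.625, 0.261, 0.0898 and 0.0499 RPKM over the 10 wild-type libraries at 0, 0.5, 1, 2 and 6 h. Its 6 h libraries (0.0293 to 0.685 RPKM) overlapped the 0 h libraries (0.301 to 8.48 RPKM) only through replicate 1 of the Nfkbid (0.685 RPKM) and Nfkbiz (0.368 RPKM) series, and it was lower in 10 of 10 pairs (-1.75 ± 0.39, adjusted p = 0.00015). Mcm2 and Mcm3, subunits of the replicative helicase, had medians of 0.172 and 0.292 RPKM at 6 h, against 1.56 and 2.28 RPKM at 0 h (-1.37 ± 0.35 and -1.53 ± 0.38). Rrm1, the large subunit of the same reductase, fell too (-1.26 ± 0.37). Mcm4 and Cdc45, parts of the same helicase, were under the filter but lower in 10 of 10 pairs, by a median of 4.25-fold and 3.73-fold. Mcm10 and Mcm9, chosen here after their values were seen, did not pass. Mcm10, which helps fire origins, had 1.77, 1.22, 0.720, 2.56 and 1.62 RPKM over the 5 times. Mcm9, a repair helicase whose span overlaps Asf1a, missed only the 2-fold line at 6 h (-0.46 ± 0.16, adjusted p = 0.011 by limma).

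All 5 tested genes of the cyclin and Cdk1 group fell at 6 h. Cdk1, the kinase that drives mitosis (chromosome 10, 68797895 to 68815660), had medians of 3.14, 1.04, 0.623, 0.565 and 0.382 RPKM, and its range was 0.121 to 2.15 RPKM at 6 h, against 1.07 to 7.38 RPKM at 0 h (-1.80 ± 0.32, adjusted p = 6.3e-06). Ccna2, the S and G2 cyclin whose span overlaps Exosc9, fell by 1.83 on the log2 scale, Ccnb1 and Ccnb2, the mitotic cyclins, by 1.37 and 1.25, and Cdc20, the activator of the anaphase-promoting complex, by 1.58. Ccne1, the cyclin of S phase entry, was under the filter: its medians were 0.856, 0.203, 0.227, 0.525 and 0.205 RPKM, so that 2 h stood above both 1 h and 6 h. Cdc25c, a phosphatase that activates Cdk1, was lower in 10 of 10 pairs at 6 h by a median of 6.95-fold.

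**Figure D3:**
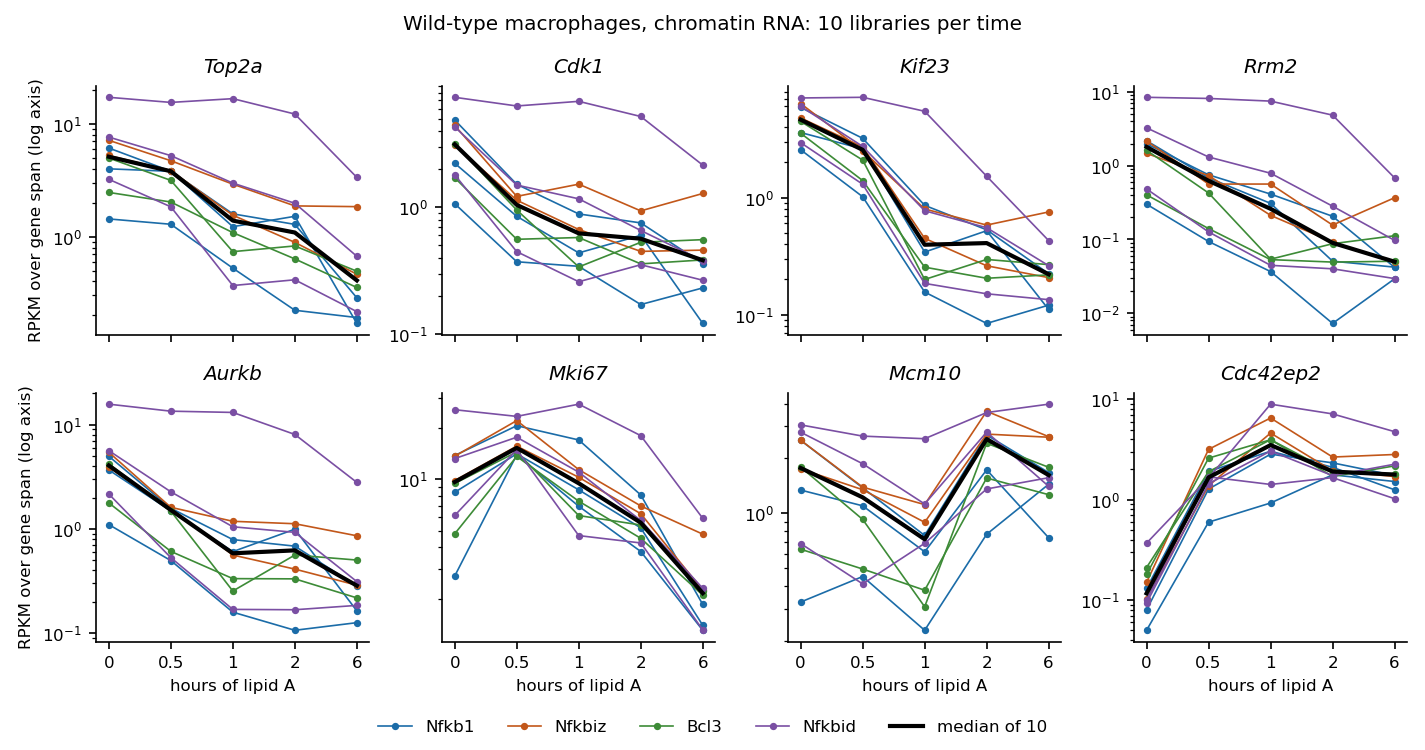
RPKM (logarithmic axis) of 8 members in the 10 wild-type chromatin courses, coloured by series, with the median in black; times are evenly spaced. Top2a, Cdk1, Kif23, Rrm2 and Aurkb descend, Mki67 is higher at 0.5 h (median 15.3 RPKM) than at 0 h (9.66 RPKM) before it descends, Mcm10 dips and returns, and Cdc42ep2 ascends.

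Both tested mitotic kinases fell. Aurkb, the kinase of the chromosomal passenger complex, had medians of 4.06, 1.52, 0.583, 0.622 and 0.285 RPKM (-2.25 ± 0.41 at 6 h, adjusted p = 8.8e-06). Plk1, the Polo kinase of mitosis, had a median of 0.188 RPKM at 6 h, against 1.56 RPKM at 0 h (-1.44 ± 0.33), and was already lower at 0.5 h (-1.21 ± 0.33). Of the 8 tested kinetochore and checkpoint genes 4 fell at 6 h: Bub1b, the checkpoint kinase BubR1 (-1.78 ± 0.24), Cenpf (-1.78 ± 0.17), Cenpe, the kinetochore motor (-1.09 ± 0.18), and Cenpo (-1.07 ± 0.16). Cenpe did not fall steadily: its medians were 2.21, 1.98, 0.679, 2.48 and 0.657 RPKM, with 2 h (range 1.01 to 4.43 RPKM) back at the level of 0 h. Cenpb, which binds centromere repeats, had 129 RPKM in Nfkbid replicate 1 at 0 h, against 3.10 RPKM in the lowest library, and its change did not pass (-1.29 ± 0.61 at 6 h).

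Kif23, the kinesin of the central spindle needed for cytokinesis (chromosome 9, 61765084 to 61794606), had the largest fall of the members tested at 6 h on the log2(RPKM + 0.5) scale. Its medians were 4.63, 2.56, 0.395, 0.408 and 0.221 RPKM, and no 6 h library (0.111 to 0.753 RPKM) reached a 0 h library (2.56 to 7.09 RPKM). The change was -2.73 ± 0.25 (adjusted p = 1.8e-12), a median of 21.6-fold within pairs, where Cdc42ep3 had 26.6-fold. Kif11, which pushes spindle poles apart, fell by 1.75, and Kif22, a chromosome arm motor, by 1.88. Kif4, a chromokinesin named here after its values were seen, had 0.865, 0.886, 0.484, 1.23 and 0.322 RPKM. At 6 h it missed only the 2-fold line (-0.64 ± 0.14, adjusted p = 0.00017 by limma).

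Chromosome structure genes fell mostly after 0.5 h. Top2a, which untangles replicated DNA (chromosome 11, 98854260 to 98885503), had medians of 5.12, 3.81, 1.39, 1.09 and 0.408 RPKM, and its 6 h libraries had 0.170 to 3.35 RPKM, against 1.44 to 17.2 RPKM at 0 h (-2.32 ± 0.39, adjusted p = 2e-06). The condensin subunits Ncapg, Ncapg2, Ncaph and Ncapd3 fell by 1.62, 1.88, 1.57 and 1.50 at 6 h, and Ncapg2, with the tightest range at rest (1.61 to 2.23 RPKM), by 0.22 ± 0.14 only at 0.5 h. Ncapd2 missed only the 2-fold line (-0.81 ± 0.24, adjusted p = 0.0033 by limma). Mki67 (chromosome 7, 142881470 to 142908062) took another course: its medians were 9.66, 15.3, 9.49, 5.58 and 2.16 RPKM, and it was higher at 0.5 h than at 0 h in 9 of 10 pairs, a difference under the 2-fold line (0.83 ± 0.27), before it fell by 1.81 at 6 h. Of the E2F factors, E2f7, a repressor of the E2F program, was under the filter with a median of 0.0339 RPKM at 6 h and 0.874 RPKM at 0 h, lower in 10 of 10 pairs, whereas E2f4, a factor of the DREAM complex, had medians of 2.40 RPKM at 6 h and 3.29 RPKM at 0 h and did not pass (-0.35 ± 0.24).

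In values that were not centred, 38 members had a median pair that fell at least 2-fold by 6 h. Of these, 15 had covered at least 0.5 of their 6 h log2 fall by 0.5 h and 21 more by 1 h, while Cdc42ep3 took 2 h and Mki67 took 6 h. The first group held Cdk1, Ccna2, Ccnb1, Ccnb2, Cdc20 and Plk1, and the second Aurkb, Bub1b, Kif23, Top2a, Rrm1, Rrm2 and the condensin subunits named above. The early shares include the shift of all genes tested, whose median was -0.48 at 0.5 h and -0.33 at 6 h. With each library centred on its median gene, 0 members were called lower at 0.5 h, and the order of the fall was not tested with centring. Other cell cycle genes outside the rule moved likewise. Of a list of 79, 52 are in the table and 25 were tested, and 6, 11, 16 and 17 of them fell at 0.5, 1, 2 and 6 h, among them Birc5, Foxm1 and Anln at 6 h, with none higher then. Of the 8 tested genes of G1 control, 1, 2, 2 and 1 fell and 4, 3, 2 and 2 rose at 0.5, 1, 2 and 6 h. Ccnd1, a D-type cyclin, fell by 1.81, 1.98 and 2.23 at 0.5, 1 and 2 h, and Rb1, the E2F repressor, fell at 1, 2 and 6 h. Mxd1, a Myc antagonist, rose at all 4 times, Ccnd2, another D-type cyclin, at 1, 2 and 6 h, the G1 kinase gene Cdk6 at 0.5 and 1 h (1.05 and 1.69), and Btg1 and Btg2, which restrain proliferation, at 0.5 h.

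All called rises were among the other members. Of the division genes, Cenpj and Mcm10, named after their values were seen, were higher at 2 h in 10 of 10 pairs. Cenpj missed only the 2-fold line (0.51 ± 0.13, adjusted p = 0.00086 by limma), and Mcm10 missed both lines (0.40 ± 0.23, adjusted p = 0.13). Of 22 other members tested, 5 fell and 1 rose at 6 h. The anaphase-promoting complex gene Cdc23 fell (-1.03 ± 0.24), and Cdc16 and Cdc26 did not pass (-0.57 ± 0.11 and -0.12 ± 0.13). Cdc16 missed only the 2-fold line (adjusted p = 2.5e-05 by limma). Cdc42ep2, an effector of the Cdc42 GTPase (chromosome 19, 5917555 to 5924816), had medians of 0.117, 1.67, 3.50, 1.91 and 1.78 RPKM, and every stimulated library stood above every 0 h library (2.60 ± 0.23 at 1 h, adjusted p = 2.7e-13). Plk2, a Polo kinase of stress and synapses, had medians of 4.94, 49.7, 15.3, 7.43 and 7.16 RPKM and rose at 0.5 h (3.12 ± 0.31) and 1 h (1.56 ± 0.31). Cdc42ep3, from the same effector family as Cdc42ep2, went the other way, with 0.0932 RPKM at 6 h, against 2.39 RPKM at 0 h (-2.26 ± 0.14), and the neuronal kinesin Kif21b fell by 1.75.

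Without Nfkb1, lipid A lowered the division genes as well. Knockout against wild type tested 4523 genes and 59 members, and 0 members were lower or higher at any of the 5 times, where 0.906% of all genes were lower and 0.133% higher at 1 or more. At an unadjusted p under 0.05, 2 of the 295 tests of members passed, and the smallest adjusted p was 0.358 for Cdc37, a kinase chaperone named after its values were seen, at 6 h. This fit has no term for the replicate number, so the low count is not evidence of no difference. The response to lipid A differed for 0 members, against 0.199% of genes. Within the knockout cells 28 members fell at 6 h, against 9.18% of all genes. Top2a had 0.11, 0.04 and 0.08 RPKM in Nfkb1 knockout libraries at 6 h, against 0.17, 0.19 and 0.29 RPKM in their wild type, a difference of -0.31 ± 0.51. Mki67 was above its wild type in all 3 knockout libraries at 6 h (2.87, 2.48 and 2.81 RPKM, against 1.40, 1.31 and 1.85 RPKM). Its response passed the test only with the replicate number as a block at each time (1.13 ± 0.28, adjusted p = 0.036), and without the block it did not (adjusted p = 0.997, standard error 0.70).

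In Nfkbiz knockout cells most division genes lay below their wild type, at rest and at 6 h. At 6 h 3 of them passed the test, calls that depended on the libraries and settings used. The test covered 4885 genes and 67 members. At 6 h, 4 members were lower and 0 higher, against 3.62% and 1.84% of all genes: Cdk1, Mki67, Top2a and the transport kinesin Kif3c. At 1 or more of the 5 times 4.26% of genes were lower and 2.01% higher, with the same 4 members lower and 0 higher. Division genes lay below wild type for 42 of 42 tested at 0 h (median -0.39, all genes -0.07) and for 40 of 42 at 6 h (median -0.55, all genes -0.24). The 2 same-numbered pairs differed in size. At 0 h the median over all 54 division genes was -0.54 in replicate 1 and -0.14 in replicate 2. For all genes tested in the wild-type course it was -0.17 and 0.02. At 6 h these medians were -0.62 and -0.30 for division genes and -0.30 and -0.19 for all genes. Within the knockout cells 41 members fell at 6 h, against 24.8% of all genes.

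Top2a had 0.27 and 0.11 RPKM in Nfkbiz knockout libraries at 6 h and 1.84 and 0.46 RPKM in wild-type libraries (-1.13 ± 0.37, adjusted p = 0.044 by limma). Cdk1 had 0.21 and 0.07 RPKM in knockout libraries and 1.29 and 0.46 RPKM in wild-type libraries (-1.04 ± 0.31, adjusted p = 0.034), and Mki67 had 1.32 and 0.97 RPKM, against 4.78 and 2.25 RPKM (-1.22 ± 0.27, adjusted p = 0.0091). The groups did not overlap for any of them, and wild-type replicate 1 was the high library each time. Without that library 0 members were lower, without knockout replicate 1 only Kif3c was, and without knockout replicate 2 none was and without wild-type replicate 2 there were 12. With each library centred on its median gene, or with each time fitted alone, 0 members were lower, and with a pseudocount of 0.1 there were 20. The macrophage markers summed to 33.4 to 45.2 RPKM in the knockout and 41.2 to 47.0 RPKM in the wild-type libraries at 6 h. Sums of 3 other marker lists stood lower in the knockout libraries: 0.354 to 0.450 RPKM and 0.656 to 0.662 RPKM in knockout and wild type for neutrophil and granulocyte precursors, 0.0286 to 0.0404 and 0.0987 to 0.115 RPKM for progenitors, and 0.0181 to 0.0237 and 0.0854 to 0.118 RPKM for stromal cells. Their part in the result was not tested.

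Kif3c, a kinesin-2 motor of intracellular transport (chromosome 12, 3365131 to 3406494, partly overlapping 1110002L01Rik), was the one member whose response differed between Nfkbiz knockout and wild type. At 6 h knockout libraries had 0.40 and 0.25 RPKM, against 1.53 and 0.90 RPKM in wild-type libraries. At 0 h they had 1.38 and 1.17 RPKM, against 1.10 and 0.88 RPKM. Both knockout libraries thus lay below both wild-type libraries at 6 h and above them at 0 h, and only 6 h passed (-1.04 ± 0.17, adjusted p = 0.00092). The difference in response was -1.29 ± 0.23 (adjusted p = 0.0062, limma), where 1.82% of genes had a lower and 1.13% a higher response at 6 h and 3.21% differed at 1 or more of 4 times. This difference in response did not pass when either knockout replicate or wild-type replicate 1 was left out, or with a pseudocount of 1. It passed without wild-type replicate 2, with a pseudocount of 0.1, without a filter, centred and with the block. The difference at 6 h itself did not pass without knockout replicate 2 (-0.91), without wild-type replicate 1 (-0.77), with a pseudocount of 1 (-0.73) or centred (-0.79). Plk2 had 13.8 and 33.3 RPKM in knockout libraries and 6.43 and 15.2 RPKM in wild-type libraries at 6 h. It passed as higher only with the replicate number as a block (1.07, adjusted p = 0.013, against 0.37 without it) and both libraries numbered 2 lay above both numbered 1.

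**Figure D4:**
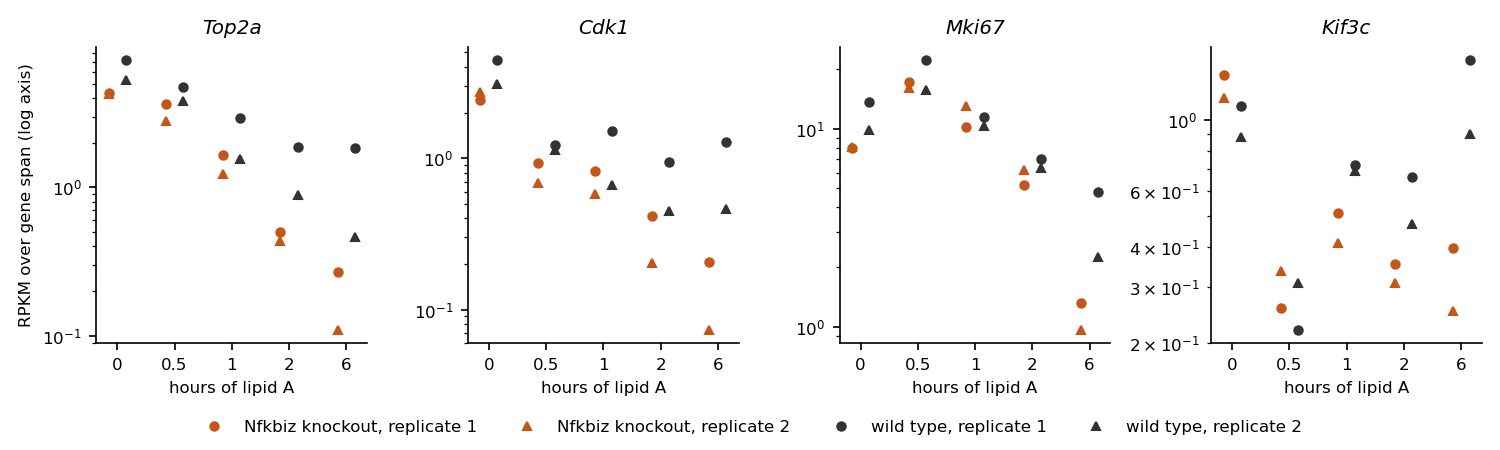
RPKM (logarithmic axis) of Top2a, Cdk1, Mki67 and Kif3c in the Nfkbiz series over the 5 times, knockout in orange to the left of wild type in black, 1 point per library. At 6 h both knockout libraries lie below both wild-type libraries for all 4 genes, and for Kif3c the wild-type level at 6 h (1.53 and 0.90 RPKM) is about that at 0 h.

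In the Bcl3 and Nfkbid series no member passed between genotypes. The Bcl3 test covered 4740 genes and 66 members, and 0% of all genes were lower, 0% higher and 0% different in response. Of 330 tests of members, 3 had an unadjusted p under 0.05. This fit has no term for the replicate number, so that count is not evidence of no difference. With the replicate number as a block, no member passed either. The 2 pairs disagreed: at 0 h, 52 of the 54 division genes were lower in knockout than in wild type in replicate 1 (sums 51.1 and 66.7 RPKM) and 2 of 54 in replicate 2 (sums 143 and 110 RPKM). Their median log2 difference was -0.25 and 0.29, where all genes tested in the wild-type course moved the same way, by -0.07 and 0.08. Without knockout replicate 2, 6 members passed as lower: Cenpe, Kif15, Kif23, Mcm9, Plk2 and Top2a. Within Bcl3 knockout cells 22 members fell at 6 h (12% of all genes), or 32 with the replicate number as a block (14.5% of all genes).

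The Nfkbid test covered 5367 genes and 68 members, and again 0% of genes were lower, 0% higher and 0% different in response. Of 340 tests of members, 0 had an unadjusted p under 0.05. This fit has no term for the replicate number, although same-numbered libraries deviated together (correlations of 0.885 to 0.969). The count is therefore not evidence of no difference. With the replicate number as a block, no member passed either. In replicate 1, 53 of 54 division genes were lower in the knockout at 0 h (sums 167 and 393 RPKM in knockout and wild type). In replicate 2, 5 of 54 were (82.8 and 70.9 RPKM), and in replicate 3, 52 of 54 (132 and 153 RPKM). The median log2 difference of the division genes was -1.59, 0.16 and -0.14 in replicates 1 to 3, against -0.06, -0.03 and -0.03 for all genes tested in the wild-type course. Within Nfkbid knockout cells 4 members fell at 6 h (3.19% of all genes), or 24 with the block (16.4% of all genes). Top2a at 6 h had 0.48, 0.23 and 0.51 RPKM in knockout libraries and 3.35, 0.22 and 0.67 RPKM in wild-type libraries, and the groups overlapped (-0.72 ± 0.97).

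Mature RNA of the division genes was lowest at 6 h of lipid A. In the wild-type polyadenylated course, with 1 library per time, the division sum was 655, 641, 574, 540 and 238 RPKM at 0, 0.5, 1, 2 and 6 h of lipid A. Under TNFa it was 655, 676, 683, 629 and 310 RPKM. In the control cells of the overexpression series it was 957 RPKM at 2 h of lipid A and 1595 RPKM at 0 h, a larger difference at 2 h than in this course. At 6 h of lipid A 48 of 79 members were at least 2-fold lower than at 0 h and 1 higher, among 9082 genes of which 21.9% were lower and 8.2% higher. At 6 h of TNFa 35 members were lower and 2 higher, where 10.7% and 5.79% of 9027 genes were. Division genes had a median of -1.85 under lipid A and -1.07 under TNFa, and all genes -0.04 and 0.00. Both comparisons share the 0 h library, and without replicates neither has a test. Neutrophil and granulocyte precursor markers stood lower too, with sums of 72.8 RPKM at 6 h of lipid A, 56.5 RPKM at 6 h of TNFa and 103 RPKM at 0 h, and 3 and 5 of 7 were at least 2-fold lower under lipid A and TNFa. Their part in the result was not tested.

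Kif23 had 0.367 RPKM at 6 h of lipid A, 2.40 RPKM at 6 h of TNFa and 22.9 RPKM at 0 h. Rrm2 had 0.314, 1.36 and 9.70 RPKM in the same libraries and Bub1b 0.996, 4.65 and 16.3 RPKM. Each was thus lowest under lipid A, with TNFa between it and the unstimulated cells. Mki67 had 8.00, 15.2 and 24.4 RPKM and Top2a 3.28, 8.00 and 20.8 RPKM. Cdc25a, a phosphatase of S phase entry named after its values were seen, was not lower (3.68, 3.90 and 2.67 RPKM). Cdc42ep2 had 63.0, 47.8 and 2.19 RPKM. Plk2 had 14.8, 70.0 and 61.9 RPKM, below the unstimulated cells under lipid A only.

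In chromatin RNA under TNFa, most division genes lay below 0 h at 6 h, few of them by 2-fold. The division sum was 133, 116, 113, 102 and 79.5 RPKM at 0, 0.5, 1, 2 and 6 h, in 1 library each. At 6 h 43 of 44 division genes over 1 RPKM were below 0 h, with a median of -0.65 against 0.02 for all genes. Past 2-fold, 1 member was lower (Rrm2, 0.989 RPKM at 6 h and 3.01 RPKM at 0 h) and 2 were higher (Cdc42ep2 and Plk2), where 2.23% and 6.29% of 3818 genes were. With a pseudocount of 0.1, 11 members were lower, and centred 2 were. Mki67 had 24.0 RPKM at 0.5 h, above 14.9 RPKM at 0 h, as in most lipid A courses, and 8.94 RPKM at 6 h. This course has no lipid A arm of its own, so the 2 stimuli are compared in polyadenylated RNA only.

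Overexpression of IkBz went with lower levels of most division genes, within 2-fold at 0 h for all 78 members over the filter. At 0 h the division sum was 1207 RPKM in IkBz-overexpressing cells and 1595 RPKM in control cells, and 48 of 53 division genes were lower, with a median of -0.44 against -0.07 for all genes. Past 2-fold 0 members were lower or higher, where 1.42% and 2.57% of 6271 genes were, and a pseudocount of 0.1 gave 1 lower and 1 higher. Top2a had 65.8 and 118 RPKM in overexpressing and control cells, Mki67 43.9 and 76.6 RPKM, Cdk1 27.7 and 43.5 RPKM, but Mcm2 39.9 and 41.0 RPKM and Rrm2 56.7 and 53.8 RPKM. By role, 16 of 16 kinetochore and checkpoint genes lay below control (median -0.48), as did 8 of 8 motors (-0.55), 5 of 5 condensin genes (-0.42) and 7 of 8 of the cyclin group (-0.64). Of the 6 licensing and origin genes 4 did (median -0.03, range -0.13 to 0.07), and of the reductase subunits Rrm1 was below (-0.39) and Rrm2 was not (0.07). These are values of 1 pair of libraries without a test. Neutrophil and granulocyte precursor markers were at least 2-fold higher in overexpressing cells for 8 of 8 genes at 0 h and at 2 h of either stimulus. They summed to 226, 252 and 179 RPKM in overexpressing cells and 15.9, 19.4 and 22.0 RPKM in control cells, unstimulated, with TNFa and with lipid A. Macrophage markers summed to 16950 and 8940 RPKM at 0 h. Their part in the result was not tested. At 2 h of TNFa the medians were -0.33 and -0.04 for division genes and all genes (0 members past 2-fold, 1.68% of genes lower and 2.49% higher). At 2 h of lipid A they were -0.36 and 0.01 (0 members, 1.86% and 2.04%). Kif3c had 5.63 and 2.95 RPKM with TNFa and 3.96 and 2.12 RPKM with lipid A in overexpressing and control cells, above control by 0.83 and 0.77 on the log2 scale.

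In the control cells of that series, 18 of 78 members were at least 2-fold lower at 2 h of lipid A than at 0 h and 1 was higher, where 15.4% and 7.88% of genes were. Kif21b (1.84 and 13.3 RPKM), Kif23 (14.8 and 49.3 RPKM) and Kif18b led them. At 2 h of TNFa 0 members were lower and 1 higher (1.91% and 4.2% of genes). The member that was higher was Cdc42ep2 both times, with 56.0 RPKM under lipid A, 35.1 RPKM under TNFa and 0.368 RPKM at 0 h.

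**Figure D5:**
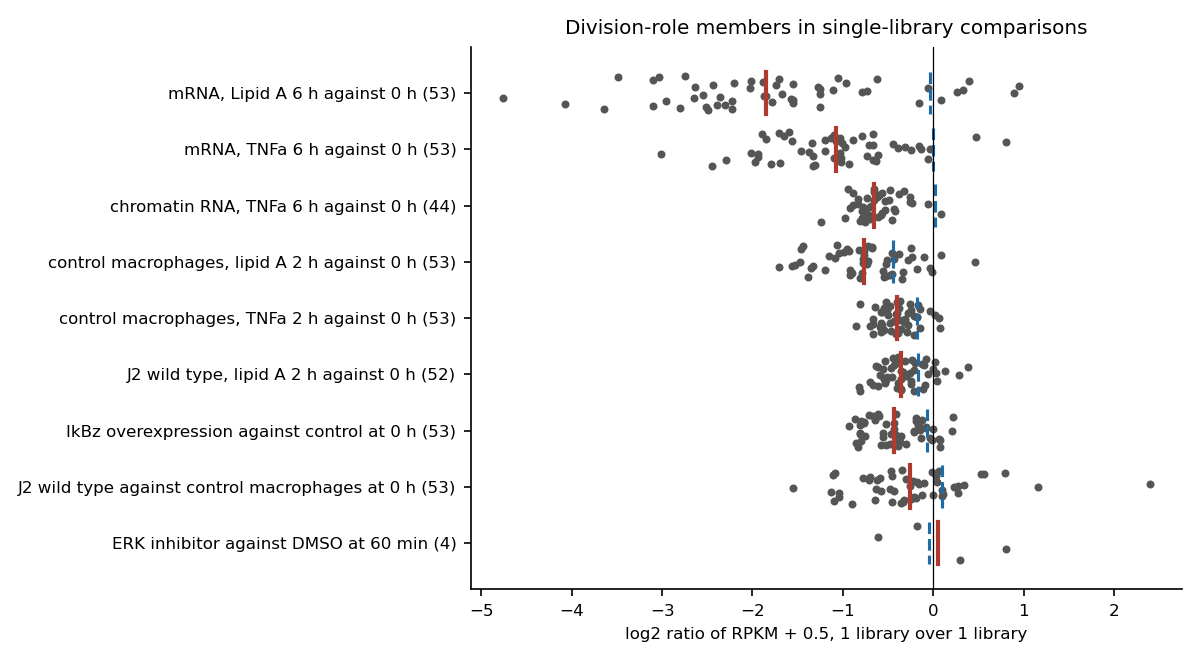
Log2 ratios of the division genes in 9 comparisons of single libraries, with the median as a red bar and the median of all genes tested as a blue dashed line. The largest shift is at 6 h of lipid A in polyadenylated RNA (-1.85), followed by 6 h of TNFa (-1.07), and the ratios of IkBz overexpression and of the ERK inhibitor stay within 2-fold.

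In J2 macrophages no division gene passed as changed at 2 h of lipid A, although 48 of 53 lay below 0 h (median -0.31, all genes -0.14). The division sums were 1012 and 1662 RPKM in the 2 double knockout libraries, 1243 RPKM in Nfkb1-/- and 997 RPKM in wild type at 2 h, and 1194 and 1911, 1489 and 1253 RPKM in the same order at 0 h. Over all 8 libraries, of 6620 genes and 79 members tested, 1 member fell (Kif21b, -1.55 ± 0.17, adjusted p = 0.035 by limma) and 1 rose (Cdc42ep2, 5.42 ± 0.53, adjusted p = 0.033), where 0.665% and 2.3% of genes did. The sum was lower at 2 h in 4 of 4 lines and replicates. With line and replicate as a block, 2 members fell (Kif21b and Kif13b, a transport kinesin) and 1 rose (Cdc42ep2), of 2.49% and 4.44% of genes. Again no division gene reached a 2-fold change with an adjusted p under 0.05. Smaller falls had an adjusted p under 0.05 by limma, such as Mcm2 (-0.585, 0.00087), Bub1b (-0.61, 0.0017) and Top2a (-0.19, 0.047). Others did not, such as Cdk1 (-0.09, 0.12) and Mki67 (0.05, 0.55), and Cenpt was higher (0.32, 0.011). Top2a had 51.3 and 104 RPKM in the double knockout, 69.1 RPKM in Nfkb1-/- and 54.1 RPKM in wild type at 2 h. At 0 h it had 66.4 and 106, 78.4 and 62.6 RPKM in the same lines. Between genotypes 0 members and 0% of genes passed, with the single wild-type and Nfkb1-/- libraries assumed to vary like the 2 double knockout ones. At 0 h the sums of the other lines lay between those of the double knockout replicates, and Top2a differed from wild type by 0.42 ± 0.55 at 0 h.

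At 0 h J2 wild-type cells differed from the control macrophages of the overexpression series for 10 members, 8 lower (Ccnb2, Cdc25c, E2f7, Kif13b, Kif23, Kif4, Mki67 and Ndc80) and 2 higher (Cenpv and E2f5), where 8.66% and 10.7% of 6343 genes were. The counts were not tested against these shares, so no difference of the members beyond that of all genes is shown. Mki67 had 36.9 and 76.6 RPKM in J2 and control cells and Cenpv 22.1 and 3.78 RPKM, while Mcm2 had 41.0 RPKM in both. These are 1 library each from separate series, whose cells, handling and series cannot be told apart.

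With the ERK inhibitor few members could be read, since the division sum was 37.1 RPKM with ERKi and 38.1 RPKM with DMSO before lipid A and 36.7 and 30.9 RPKM at 60 min. Of 23 members over 1 RPKM at 0 min and 13 at 60 min, 0 differed 2-fold. At 0 min 0.755% of genes were lower and 0.549% higher with the inhibitor, and at 60 min 5.24% and 4.6%. Mki67 had 9.49 RPKM with ERKi and 5.19 RPKM with DMSO at 60 min, 0.81 apart on the log2 scale. Both were above the 1.10 and 1.66 RPKM of 0 min. Cdc42ep2 had 1.03 and 2.42 RPKM with ERKi and DMSO at 60 min, a log2 difference of -0.94 in this single pair.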

How the data were processed

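The authors deposited 1 table of RPKM values for 15196 genes with mm9 coordinates. Per the submitters' processing notes, HISAT2 and SAMtools were used with mm9, and per the labels' protocols libraries were made with a stranded kit. The counting tool and versions are not given in the sources used here. In 23 libraries the labels name polyA RNA, whereas the extraction text describes chromatin for all.

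From these values log2(RPKM + 0.5) was computed. Genes with at least 1 RPKM in as many libraries as the smallest group were tested with limma 3.58.1 (R 4.3.3, trended variance), with Benjamini-Hochberg adjustment per contrast over all genes tested. A call needed an adjusted p under 0.05 and a 2-fold change. Single libraries were compared by ratio, without a test. Whole reads were recovered from value steps: 97.5% to 100% of chromatin values worth up to 30 reads lay within 0.02 of a whole number, against 27.2% to 38.8% in polyadenylated libraries. A value can be that of 1 read where no read was counted, and counting error alone is covered by depth. Scripts were tested on simulated data.

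Same-numbered libraries of a series deviated together (correlations of 0.267 to 0.969 over all pairs), so the numbers pair the samples, and fits with the replicate number as a block are given where they change a call between genotypes, and for the fall within Bcl3 and Nfkbid knockout cells, where the counts moved most. In the Nfkbiz series the block brought 1 member past the test as higher. The wild-type libraries of each knockout comparison are also those of the wild-type course. Values by library are given for 22 fixed members and up to 10 called members with the largest change each way in a comparison. The members, lists and tests were chosen with earlier results of these data known. Of the members, 8 overlap another gene, where reads cannot be told apart unless strand was used in counting.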

Additional observations from a re-analysis of the deposited data

Results flagged for a closer look

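Among the 10 wild-type libraries, 22 named members were examined at 0 h and at 6 h for a library far from the others, judged by its gap to the nearest one relative to the whole range. Of 44 such groups 31 had one, and 22 of these were replicate 1 of the Nfkbid series. A rate of about 1 in 20 groups would hold for normal values and independent groups. RPKM values need not be normal and the 22 members share the same 10 libraries, so the count cannot be set against that rate.

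At 0 h this replicate was far above the others for Mki67 (25.6 RPKM), Top2a (17.2), Ccna2 (23.1), Ccnb2 (9.57), Mcm2 (6.25), Mcm3 (9.70), Mcm4 (5.37), Rrm1 (9.65), Rrm2 (8.48), Aurkb (15.8) and Plk1 (7.83). At 6 h it was so for Top2a (3.35 RPKM), Ccna2 (3.92), Ccnb2 (2.59), Ccne1 (1.15), Mcm2 (1.03), Mcm3 (1.85), Mcm4 (1.23), Rrm1 (2.94), Rrm2 (0.685), Aurkb (2.79) and Plk1 (1.67). The same replicate has the low Malat1 and Rmrp levels given above.

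Wild-type replicate 1 of the Nfkbiz series was far above the others at 6 h for Ccnb1 (0.904 RPKM), Cdc45 (0.496), Cenpf (0.528), Kif11 (0.686), Kif23 (0.753), Ncapg (0.571) and E2f7 (0.159). Without it, as without knockout replicate 2, no member was lower in Nfkbiz knockout cells. Ncapd2 was low at 0 h in wild-type replicate 2 of the Nfkb1 series (5.86 RPKM) and high at 6 h in its replicate 1 (13.1 RPKM).

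Kif3c responded differently to lipid A at 6 h in Nfkbiz knockout and wild-type cells, by -1.29 on the log2 scale, in a test of the difference itself. Leaving out either knockout replicate, or wild-type replicate 1, ended this call.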

How the results depend on the processing

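Of the alternatives run on the counts reported, 321 values stayed within 1.5 times the reported count or on its side of the threshold and 60 did not. The balance of member calls turned at 0.5 h in wild-type cells, where 10 were lower and 2 higher as reported, 0 and 3 centred and 1 and 2 with a pseudocount of 1. Where a value moved, the cause was not tested. In wild-type cells, members lower at 0.5, 1, 2 and 6 h (10, 25, 25 and 31 as reported) were 22 at 0.5 h with a pseudocount of 0.1. With a pseudocount of 1 they were 1 at 0.5 h and 8 at 1 h. A filter of 3 RPKM, which tests fewer genes, left 3, 3, 4 and 4, and a filter of 0.3 RPKM with a pseudocount of 0.1 gave 31, 47, 46 and 51. Centring each library on its median gene gave 0, 5 and 14 at the first 3 times, and 2 members higher at 6 h. The Nfkbiz series alone gave 21 at 0.5 h and 38 at 2 h, the Bcl3 series alone 19 at 0.5 h, and the Nfkbid series alone 0, 0, 1 and 4, with 0 higher at 6 h. The replicate block gave 10, 25, 26 and 32. Leaving out each replicate gave 8 to 13, 20 to 26, 25 to 28 and 26 to 32.

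In Nfkbiz knockout cells, 4 members were lower as reported, 20 with a pseudocount of 0.1 (alone or with a filter of 0.3 RPKM), 1 with a pseudocount of 1, 2 without a filter, and 0 centred or with each time fitted alone. Leaving out 1 replicate gave 0 to 12, with the lone library left assumed to vary like the other groups. Members higher (0 as reported) were 1 with a pseudocount of 0.1, 2 with the 0.3 RPKM filter as well, 1 centred, and 1 with the replicate block, overall or at each time. Members with a different response (1 as reported) were 2, 0 and 3 with pseudocounts of 0.1, of 1 and of 0.1 with the 0.3 RPKM filter, 0 with the 3 RPKM filter, 2 centred, 2 with the replicate block at each time and 0 to 2 leaving out a replicate. In Nfkb1 knockout cells the block at each time gave 1 different response, and in Bcl3 knockout cells leaving out a replicate gave 0 to 6 lower. The replicate block changed no other count between knockout and wild type. In J2 cells a block for line and replicate, chosen after seeing the data, gave 2 lower members, against 1 as reported.

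Among single-library ratios, a pseudocount of 0.1 gave 1 member lower and 1 higher with IkBz overexpression at 0 h, 3 higher at 6 h of lipid A in polyadenylated RNA, 11 lower at 6 h of TNFa in chromatin RNA and 1 lower with ERKi at 60 min. Centring gave 8 lower in control cells at 2 h of lipid A, 7 higher at 6 h of lipid A in polyadenylated RNA and 2 lower at 6 h of TNFa in chromatin RNA, where a filter of 3 RPKM left 1 higher. Depth limits members under about 1 RPKM, which mostly did not enter the tests.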
